A study of Ovis aries with 9 samples.

Results

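The genes described here are 9 regulators of multiciliogenesis, FOXJ1, RFX1, RFX2, RFX3, TP73, MYB, CCNO, MCIDAS and E2F4, chosen by name among the 27174 rows of a table of RNA-Seq counts from sheep ovaries. All 9 were found and tested, 7 under their own symbol alone. RFX3 is split over a pair of rows, of which the row RFX3 holds 4 reads in W6 and none elsewhere, so the row RFX3.1, with 104 to 761 reads per library, was used. MCIDAS was read from the row MCIN, named for multicilin, the protein of that gene.

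Ovaries of adult ewes were sequenced, with 1 library per ewe and 3 ewes per group. Han BB ewes (W1, W2 and W4) were Small Tail Han sheep homozygous for the FecB mutation of the receptor gene BMPR1B. Han ++ ewes (W6, W7 and W8) were Small Tail Han sheep without that mutation, and Dorset ewes (D4, D5 and D6), a breed of lower fecundity, carry the genotype label wild type. In every group estrus had been synchronized with a progestogen sponge and a gonadotropin injection, and the ovaries were collected once the following spontaneous estrus had occurred. Because whole ovaries were used, the libraries mix all ovarian cell types with any attached epithelium, and fewer cells of a type cannot be told apart from less RNA per cell. Breed and FecB genotype differ together between Han BB and Dorset, so their parts cannot be told apart in that comparison.

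Multiciliated cells, which line the oviduct and carry many motile cilia each, are built by a chain of regulators. GMNC (GEMC1) and MCIDAS are coiled-coil proteins that act with E2F4 or E2F5 and DP partners to switch on TP73, MYB, FOXJ1 and CCNO. MYB and CCNO act on the amplification of centrioles, the basal bodies of the cilia, while FOXJ1 and the RFX factors activate genes of the axoneme, the microtubule core that moves the cilium. Several of these genes also work elsewhere: E2F4 is a general cell cycle repressor, RFX1 is broadly expressed, and MYB is known from blood precursors and dividing cells.

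Total reads per library ranged from 10803913 (W8) to 20992535 (W7). Libraries W4 and D6 stood apart from the other 7 at 1 end of the first principal component of log2 CPM, which held 42.4% of the variance. They lay at -99 and -88.1, with the next library, W7, at -18.5, and each was the nearest library to the other. D4 was as far out at the opposite end, at 100, with W8 next at 60. It also had the smallest TMM factor, 0.8799, and 14.9% of its reads in the gene LOC101101865. Where a value moved without W4 and D6, both values are given for the main results. Levels are CPM, reads of a gene relative to the TMM-scaled library size, and are compared between ewes for the same gene. Different genes are not ranked by level, as no transcript lengths were used.

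FOXJ1, the forkhead factor of motile cilia, gave the clearest separation of groups among the 9 genes. Its level was 11.2 CPM in W6, 8.32 CPM in W7 and 8.57 CPM in W8, the Han ++ ewes. In Han BB ewes it was 5.84 CPM in W1, 3.36 CPM in W2 and 2.88 CPM in W4, and in Dorset ewes 2.92 CPM in D4, 2.61 CPM in D5 and 3.13 CPM in D6. Every Han ++ ewe was above all 6 other ewes, a pattern whose share over all genes was not computed, while Han BB and Dorset ewes overlapped. The mean of the Han ++ group was 9.37 ± 1.60 CPM, that of Han BB 4.03 ± 1.59 CPM and that of Dorset 2.89 ± 0.258 CPM (SD, n = 3 each). These rest on 30 to 235 reads per library.

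The Han ++ against Dorset difference of FOXJ1 was 1.70 on the log2 scale (SE 0.38), a 3.24-fold higher level, with all 3 Han ++ ewes higher. In edgeR's quasi-likelihood test its unadjusted p was 0.000955, rank 36 of 16871 genes, and its Benjamini-Hochberg adjusted p of 0.448 did not pass 0.05. DESeq2 on the same counts gave 1.70 (SE 0.43) with an adjusted p of 0.023 and so called FOXJ1, 1 of 65 genes, or 0.404% of those it tested. Over the other alternatives the adjusted p ran from 0.114, with W4 and D6 given their own term, to 1. Han BB against Han ++ gave -1.21 (SE 0.37, edgeR adjusted p = 0.999), a 2.32-fold lower mean level, with all 3 Han BB ewes below all Han ++ ewes, a pattern that 4.59% of all genes had. The interval of the Han BB against Dorset difference, -0.25 to 1.22 on the log2 scale, included 0.

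**Figure D1:**
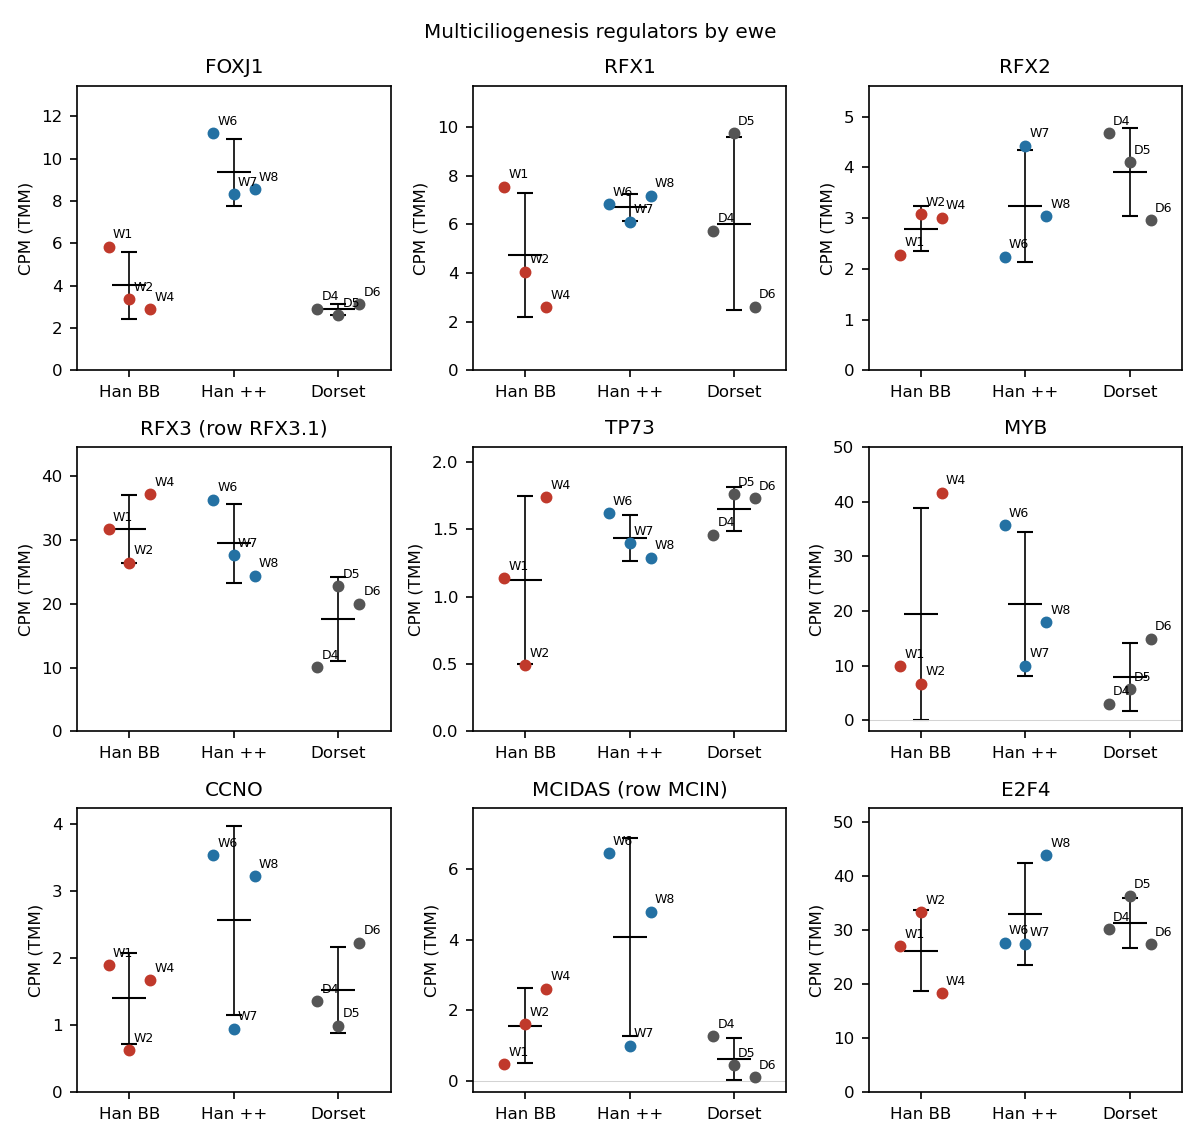
CPM (TMM scaled, linear axis) of each of the 9 regulators in the 9 ewes, with group means (horizontal mark) and SDs (bars, n = 3). The Han ++ ewes lie between 8.32 and 11.2 CPM for FOXJ1, above the other 6, whereas MYB runs from 3.02 CPM in D4 to 41.7 CPM in W4.

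None of the 9 regulators was called, at an adjusted p under 0.05 and a change beyond 1.5-fold, by edgeR in any comparison. Over all genes edgeR called 0% in Han BB against Dorset, in Han BB against Han ++ and in all Han against Dorset, and 0.00593% in Han ++ against Dorset, where the gene called was ROPN1L. At an unadjusted p under 0.05, 3 of 9 regulators were higher in Han ++ than in Dorset (FOXJ1, RFX3 and MCIDAS), beside 2.61% of all genes. That was 1 of 9 (RFX3) for Han BB against Dorset, beside 2.1%, and FOXJ1 was the 1 of 9 that was lower in Han BB than in Han ++, beside 1.09%. For all Han against Dorset ewes it was 3 of 9, again FOXJ1, RFX3 and MCIDAS, beside 2.63%. The 2 comparisons with Dorset share the Dorset ewes. Groups did not overlap for 2 of 9 regulators, FOXJ1 and RFX3, in Han ++ against Dorset, both higher, as were 5.47% of all genes. In Han BB against Dorset this held for 1 of 9, RFX3, and for 4.27% of all genes.

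The RFX family binds the X-box motif in promoters of cilia genes, and RFX2 and RFX3 are its members best known from ciliated cells. RFX3 was 31.7, 26.4 and 37.1 CPM in W1, W2 and W4, 36.3, 27.6 and 24.4 CPM in W6, W7 and W8, and 10.1, 22.7 and 20 CPM in D4, D5 and D6. All 6 Han ewes were above all 3 Dorset ewes, a non-overlapping higher pattern that 1.83% of all genes had. The gap between the highest Dorset and the lowest Han ewe was small, 22.7 against 24.4 CPM. Han against Dorset gave 0.79 (SE 0.30, unadjusted p = 0.0223, edgeR adjusted p = 0.696). Between Han BB and Han ++ the interval of the difference was -0.54 to 0.76 on the log2 scale.

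RFX2 had no group apart, with 2.28 to 3.08 CPM in Han BB, 2.24 to 4.43 CPM in Han ++ and 2.96 to 4.67 CPM in Dorset ewes. Its Han ++ against Dorset interval, -1.11 to 0.58 on the log2 scale, leaves room for a change beyond 1.5-fold downwards. RFX1 was lowest in W4 (2.61 CPM) and D6 (2.62 CPM), the pair that stood apart, and reached 9.74 CPM in D5. Its group means were 4.74 ± 2.54, 6.70 ± 0.549 and 6.03 ± 3.56 CPM in Han BB, Han ++ and Dorset (SD, n = 3), which overlap. The sign of its Han ++ against Dorset difference, 0.15 (SE 0.51), turned to -0.23 without W4 and D6.

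TP73, a p53 relative needed for multiciliated cells, and CCNO, a cyclin-like protein of centriole amplification, had few reads. TP73 had 7 reads in W2, 0.49 CPM with an exact Poisson 95% interval of 0.197 to 1.01 CPM, and 14 to 39 reads in the others. Its levels lay between 1.14 and 1.76 CPM in those 8 ewes, and the spread over all 9 ewes, a CV of 28.9%, compares with 23.1% for counting alone. For TP73 no difference was detectable at this depth (edgeR adjusted p of 0.997 or more in each pairwise comparison with Dorset).

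CCNO was 3.53 CPM in W6 and 3.22 CPM in W8 but 0.95 CPM in W7, all 3 of them Han ++ ewes. In the other 6 ewes it ran from 0.63 CPM in W2 to 2.23 CPM in D6. Han ++ against Dorset gave 0.74 (SE 0.70, edgeR adjusted p = 1), and the Han ++ ewes alone spanned nearly the whole range of the 9. The Han BB against Dorset value, -0.12 (SE 0.70), turned to 0.12 without W4 and D6.

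MCIDAS (row MCIN) was high in the same 2 Han ++ ewes, 6.44 CPM in W6 and 4.79 CPM in W8, with 0.995 CPM in W7. Han BB ewes had 0.475, 1.61 and 2.61 CPM (W1, W2 and W4), and Dorset ewes 1.27, 0.451 and 0.112 CPM (D4, D5 and D6), the last from 2 reads. Han ++ and Dorset overlapped through W7 and D4. The fitted difference was 2.79 (SE 0.99, unadjusted p = 0.017, edgeR adjusted p = 0.836), and its interval, 0.85 to 4.74 on the log2 scale, was the widest of the 9. It was 3.78 without D4 and 2.26 without W6.

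MCIDAS and CCNO are neighbours in the RefSeq table of sheep genes (assembly ARS-UI_Ramb_v3.0, chromosome 16), followed by CDC20B, the host gene of a miRNA cluster of multiciliated cells. CDC20B had 32.8 CPM in W6, 13.1 CPM in W8 and 3.48 CPM in W7, the order that MCIDAS and CCNO had in these 3 ewes. It was also 33.2 CPM in W4, where CCNO was 1.67 and MCIDAS 2.61 CPM, and 2.21 to 4.41 CPM in the other 5 ewes. CDC20B, named after its values were seen, was 2.24 higher on the log2 scale in Han ++ than in Dorset (SE 0.98, edgeR adjusted p = 0.937).

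MYB had the widest range among the regulators with at least 30 reads in every library. It was 41.7 CPM in W4 but 9.83 CPM in W1 and 6.65 CPM in W2, the other Han BB ewes. Han ++ ewes had 35.7, 9.95 and 18.0 CPM (W6, W7 and W8), and Dorset ewes 3.02, 5.68 and 14.9 CPM (D4, D5 and D6). The spread within groups was a CV of 86.6%. All 3 groups overlapped, and Han against Dorset gave 1.36 (SE 0.69, unadjusted p = 0.0772, edgeR adjusted p = 0.838). That value fell to 0.71 without W4 and rose to 2.21 without D6. Han ++ against Dorset gave 1.42 (SE 0.77, edgeR adjusted p = 1), but 2.26 without W4 and D6 (SE 0.55, edgeR adjusted p = 0.206) and 2.36 with their own term in the fit (SE 0.47, edgeR adjusted p = 0.0599). It was 0.78 without W6.

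E2F4, the DNA-binding partner of GMNC and MCIDAS, ran from 18.3 CPM in W4 to 43.8 CPM in W8, with the smallest CV over the 9 ewes (23.7%). Group means were 26.2 ± 7.57, 33.0 ± 9.41 and 31.3 ± 4.59 CPM in Han BB, Han ++ and Dorset (SD, n = 3), and the groups overlapped. Its Han ++ against Dorset value was 0.07 (SE 0.31), with an interval of -0.53 to 0.68 on the log2 scale, and turned to -0.02 without W4 and D6.

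**Figure D2:**
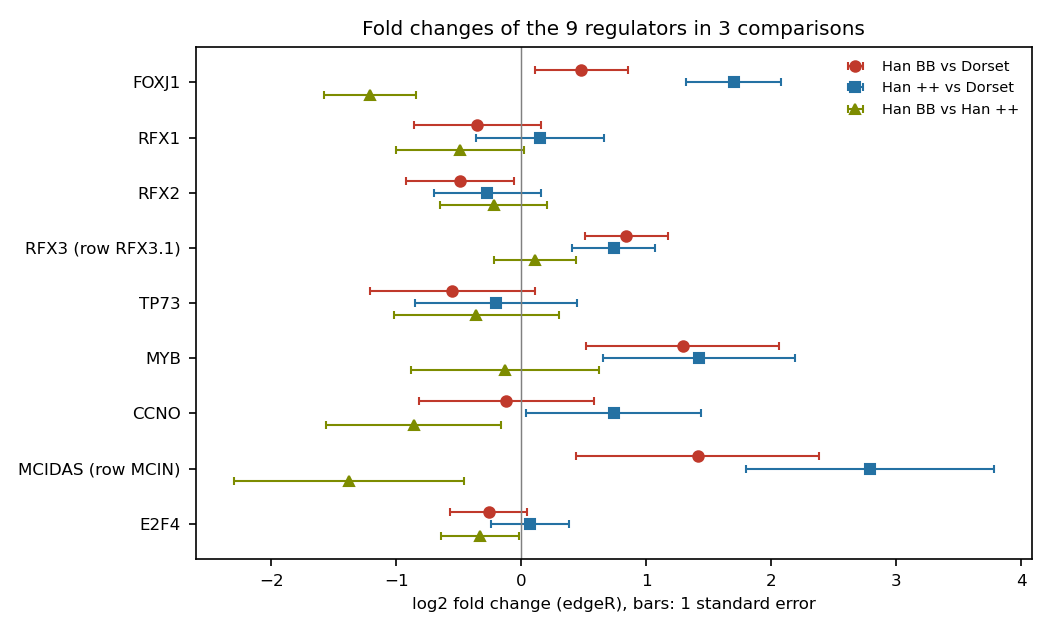
Log2 fold changes from edgeR (x axis; bars are 1 SE) of the 9 regulators in the 3 pairwise comparisons. FOXJ1 in Han ++ against Dorset lies at 1.70 with an SE of 0.38, and the wider bars belong to MCIDAS, up to an SE of 0.99.

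The axonemal level of a library was taken as the mean log2 CPM of 63 genes of dynein arms, radial spokes, the central pair and other parts of the axoneme, out of 75 listed. It was 3.22, 2.94 and 4.52 in W1, W2 and W4, 4.15, 3.91 and 3.52 in W6, W7 and W8, and 2.69, 2.56 and 3.78 in D4, D5 and D6. W4 and D6 thus had the highest axonemal level of their groups. Of the 63 genes 57 were higher in Han ++ than in Dorset, as were 7436 of all 16871 genes, with a median difference of 0.68 on the log2 scale against -0.06 for all genes, and 10 were higher at an unadjusted p under 0.05, beside 2.61% of all genes. Han BB against Dorset had 52 of 63 higher, beside 8338 of all genes, with a median of 0.71 against -0.01. Han BB against Han ++ had 28 of 63 higher, beside 9006 of all genes, with a median of -0.06 against 0.04. For the 9 regulators the medians in these 3 comparisons, in the same order, were 0.74, -0.12 and -0.36.

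MYB followed the axonemal level across the 9 ewes, with Pearson's r = 0.91 (exact permutation p = 0.00102) and Spearman's rho = 0.92 (exact permutation p = 0.00131). Adjusted over the 9 relations with this level, the p values were 0.0092 and 0.0118, and 0.64% of all genes had an r as high. Without W4 and D5, the ewes farthest from the median axonemal level, r was 0.87, and on deviations from the group means it was 0.87. Without W4 and D6 it was 0.86 (exact permutation p = 0.0135, adjusted 0.0607), and 0.35 on deviations from the group means of those 7 ewes. The high value within groups therefore rested on W4 and D6. The adjustments cover regulators chosen with earlier results of these data known.

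Across all 9 ewes the relation of FOXJ1 with the axonemal level did not pass the test, with r = 0.41 (exact permutation p = 0.264, adjusted 0.339) and rho = 0.40 (exact permutation p = 0.291, adjusted 0.328). W4 had the highest axonemal level, 4.52, and a FOXJ1 level of 2.88 CPM, and D6 had 3.78 and 3.13 CPM. The 7 other ewes lay close to a line, with r = 0.97 (exact permutation p = 0.000794, adjusted 0.00714), a value that 0.124% of all genes reached. W4 and D6 are the ewes off that line, and these p values do not cover the choice to leave them out. The permutation also ignores the groups, and among the 7 the Han ++ ewes were the highest in both values. On deviations from the group means r was 0.70 in those 7 ewes and -0.17 in all 9. Leaving out W4 and D5 gave 0.71. Leaving out each ewe in turn gave an r of FOXJ1 from 0.26 to 0.78.

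**Figure D3:**
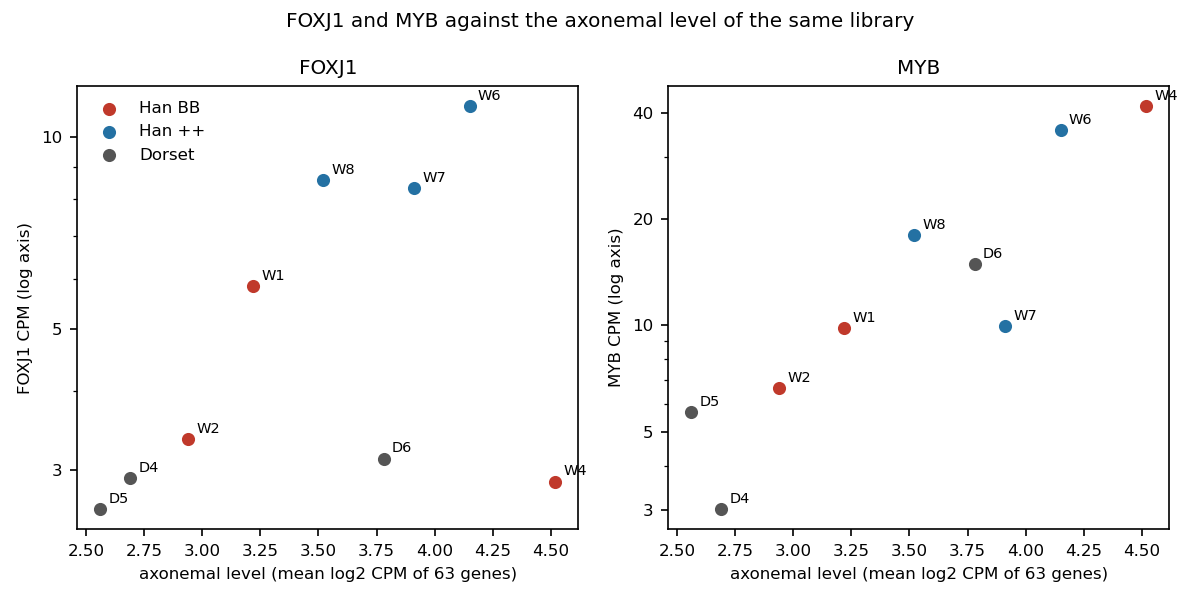
CPM of FOXJ1 and MYB (log axes) against the axonemal level of the same library (mean log2 CPM of 63 genes), 1 point per ewe, coloured by group. For FOXJ1, W4 and D6 (2.88 and 3.13 CPM) lie below the ewes of similar axonemal level, W6, W7 and W8, and for MYB W4 is the highest ewe.

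For the other regulators no r with the axonemal level passed 0.05 after adjustment over the 9 relations. RFX3 had r = 0.63 (exact permutation p = 0.0535, adjusted 0.179) and rho = 0.70, and 0.29 on deviations from the group means without W4 and D6. CCNO had 0.48, MCIDAS 0.36 and TP73 0.35, with adjusted exact permutation p values of 0.336, 0.382 and 0.391. These 3 were at 0.55, 0.62 and 0.18 without W4 and D6. RFX1 (-0.51), RFX2 (-0.42) and E2F4 (-0.64) were on the negative side. Without W4 and D6 RFX1 was at -0.04, RFX2 at -0.44 and E2F4 at -0.32. The values of RFX1 and E2F4 across ewes thus rested in part on these libraries. On deviations from the group means of the 9 ewes RFX1 was at -0.78, RFX2 at -0.28 and E2F4 at -0.85. Without W4 and D6 these within-group values were 0.10, -0.38 and -0.93, so that of E2F4 did not rest on the pair. Among the 36 pairs of regulators the smallest adjusted exact permutation p was 0.422, for RFX3 and MYB (r = 0.76). FOXJ1 and MYB had r = 0.42, and 0.90 without W4 and D6.

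The gap between W4 with D6 and the other 7 ewes was set out gene by gene, as the mean log2 CPM in the pair minus that in the 7. MYB was 1.37 higher in the pair, TP73 0.45, CCNO 0.32 and RFX3 0.17. RFX2 was at -0.13, E2F4 at -0.51, FOXJ1 at -0.81, MCIDAS at -1.03 and RFX1 at -1.29. Of the 63 axonemal genes 52 were higher in the pair, as were 7862 of all 16871 genes. The axonemal median was 0.96, against -0.08 for all genes. MNS1 (2.86), a tubule-lumen protein, and ENKUR (2.30) were among the highest. On the side of FOXJ1 were CFAP73 (row CCDC42B, -1.72), the lowest, TPPP3 (-1.01), TCTE1 (-0.99) and ROPN1L (-0.75). All of these genes except ROPN1L were named after their values were seen. What sets W4 and D6 apart was not tested.

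The 63 axonemal genes had a median r of 0.29 with FOXJ1 and 0.78 with MYB over the 9 ewes, beside 0.02 and -0.07 for all genes. Without W4 and D6 the medians were 0.83 and 0.72, beside -0.02 and -0.02 for all genes. There 61 of 63 genes had an r above 0 with either regulator, a share that was not computed over all genes. The 11 dynein heavy chains, the large motor subunits with long transcripts, had medians of 0.33 and 0.80 over the 9 ewes, close to those of the 52 other axonemal genes (0.28 and 0.78).

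**Figure D4:**
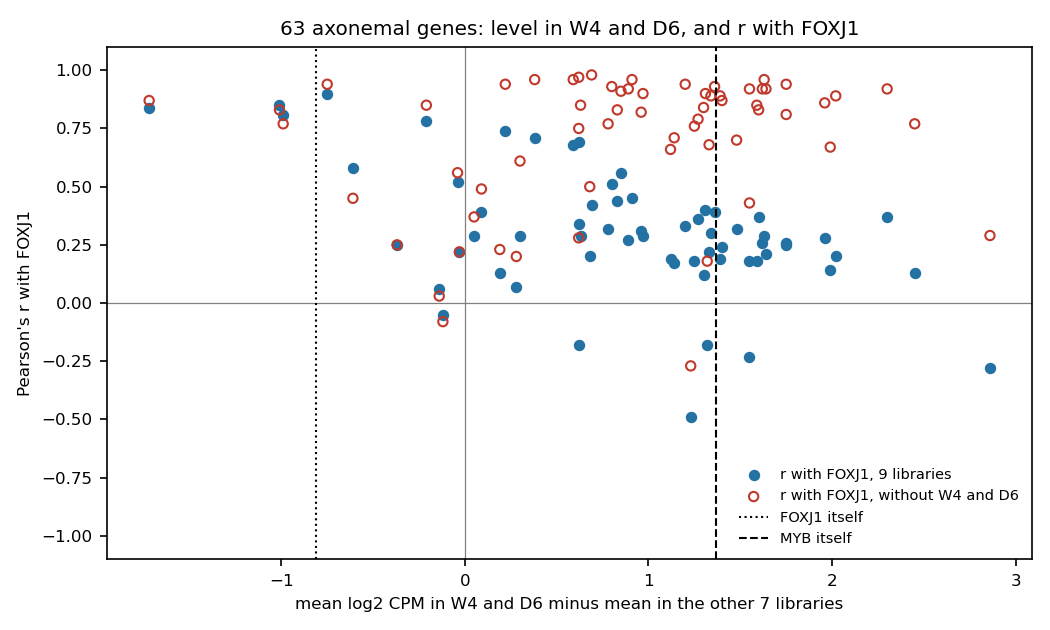
Each of the 63 axonemal genes by its mean log2 CPM in W4 and D6 minus that in the other 7 libraries (x axis) and its Pearson's r with FOXJ1 (y axis), over 9 libraries (filled) and without W4 and D6 (open); vertical lines mark FOXJ1 (-0.81) and MYB (1.37). The median r moves from 0.29 to 0.83 when the pair is left out.

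GMNC, which acts at the top of the cascade, was 3.99, 2.17 and 2.41 CPM in W1, W2 and W4, 4.53, 1.76 and 3.13 CPM in W6, W7 and W8, and 2.34, 0.361 and 0.838 CPM in D4, D5 and D6. Dorset ewes were mostly lower but D4 overlapped the Han ewes, and Han against Dorset gave 1.39 (SE 0.64, edgeR adjusted p = 0.815). E2F5, the close relative of E2F4, ran from 9.44 CPM in D4 to 17.1 CPM in W4 and had an r of 0.84 with the axonemal level (0.74 without W4 and D6), where E2F4 had -0.64 (-0.32). Of the 11 upstream genes and E2F partners, 0 were called or had an unadjusted p under 0.05 in Han ++ against Dorset.

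Of 20 tested genes of centriole amplification, 3 were higher in Han ++ than in Dorset at an unadjusted p under 0.05, beside 2.61% of all genes. At that p 0 were lower. Regardless of p, 12 of the 20 were higher, with a median of 0.07 on the log2 scale against -0.06 for all genes. Han BB against Dorset had 19 of 20 higher, 0 of them at an unadjusted p under 0.05, with a median of 0.22 against -0.01. The smallest p in Han ++ against Dorset was that of CCDC78, a protein of the deuterosome (1.32, SE 0.38, edgeR adjusted p = 0.624). CCDC78 was 24.8, 20.8 and 13.8 CPM in W6, W7 and W8 and 6.91, 5.27 and 11.6 CPM in D4, D5 and D6, without overlap, a higher pattern that 5.47% of all genes had. DEUP1 (row CCDC67, named after its values were seen), which builds the deuterosome, was highest in W4 (21.3 CPM) and D6 (12.7 CPM), with an r of 0.90 with the axonemal level and 0.84 without these libraries. The median r with the axonemal level was 0.66 over these 20 genes, 0.36 over the 9 regulators, -0.25 over 14 paralogs of the regulators and -0.08 over all genes. Without W4 and D6 the medians were 0.57, 0.55, -0.25 and -0.02. Among the paralogs RFX5, an RFX factor of MHC class II genes, was lower in Han ++ than in Dorset by a log2 difference of -1.05 (SE 0.32, edgeR adjusted p = 0.723). Its groups did not overlap, as for 943 of all 16871 genes that were lower in this way.

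The 10 genes whose log2 CPM was most like that of FOXJ1 over the 9 ewes were PSD4 (r = 0.989), FOXRED2 (0.967), UBXN10 (0.944), LOC101121589 (0.936), WDR38 (0.935), LOC101113617 (0.923), WDR54 (0.917), ROPN1L (0.902), ZMYND10 (0.895) and PIP5K1B (0.888). ROPN1L, a radial spoke protein, was 25.7, 19.5 and 20.7 CPM in W6, W7 and W8, 10.9, 9.81 and 8.50 CPM in W1, W2 and W4, and 3.31, 2.66 and 4.08 CPM in D4, D5 and D6. Its 3 groups did not overlap, a pattern whose share over all genes was not computed. ROPN1L was the gene called in Han ++ against Dorset, with a rise of 2.71 on the log2 scale (SE 0.31, edgeR adjusted p = 0.0446). ZMYND10, an assembly factor of dynein arms, had 21.0 ± 4.25 CPM in Han ++, 12 ± 2.34 CPM in Han BB and, lowest, 7.11 ± 2.64 CPM in Dorset ewes (SD, n = 3). UBXN10, a cilia protein, had 15.4 ± 3.19, 8.24 ± 3.69 and 3.27 ± 0.475 CPM in the same order. Han ++ was the highest group for both, a pattern that their choice by likeness to FOXJ1 in these same ewes largely sets. Neither passed the test against Dorset (edgeR adjusted p of 0.437 and 0.21), which after that choice is no separate evidence.

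Markers of other cell types were set beside the regulators. The oviduct secretory list (8 of 9 genes with a row, among them OVGP1, the oviductal glycoprotein) summed to 875 to 1990 CPM in Han ++ ewes, 916 to 1270 CPM in Han BB ewes and 406 to 804 CPM in Dorset ewes. OVGP1 alone made up most of each sum, as with 1820 of 1990 CPM in W6 and 371 of 406 CPM in D5. The mean log2 CPM of the list followed FOXJ1 with r = 0.85 (exact permutation p = 0.00482, adjusted 0.0434) and rho = 0.92 (exact permutation p = 0.00131, adjusted 0.0118). That r was 0.86 without W4 and D6, 0.90 without D5 and D6, the ewes farthest from its median, and 0.70 on deviations from the group means. MYB had 0.41 and MCIDAS 0.71 with it, with adjusted exact permutation p values of 0.43 and 0.153, and 0.77 and 0.66 without W4 and D6. Single genes of the list went both ways with FOXJ1 over the 9 ewes. The r was 0.85 for TFF3, 0.84 for MUC1, 0.80 for WFDC2, 0.73 for OVGP1, 0.53 for PAX8 and 0.40 for EPCAM. It was -0.10 for MSLN and -0.33 for CLDN4. With the axonemal level the median r of the list was 0.31, and 0.80 without W4 and D6. EPCAM (0.96) and OVGP1 (0.68) had the highest r with that level over the 9 ewes. Without W4 and D6 they were at 0.93 and 0.79. PAX8 (-0.31) and CLDN4 (-0.49) were negative over the 9 ewes. These genes were picked with their values in view. TFF3, the gene of the list with the smallest p, was 3.85 higher on the log2 scale in Han ++ than in Dorset (SE 0.64, edgeR adjusted p = 0.203). The part of attached oviduct tissue in the levels of the regulators was not tested.

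T cell markers summed to 42 to 65.4 CPM in Han BB, 49 to 51.1 CPM in Han ++ and 46.1 to 67.9 CPM in Dorset ewes, all 8 being expressed above the filter. Their median r with the axonemal level was 0.02, and that of 8 proliferation genes, which summed to 180 to 525 CPM over the 9 ewes, was 0.17. Single markers went both ways. CD3G and CD3E, T cell receptor subunits, had an r of 0.80 and 0.67 with MYB, while LCK, a T cell kinase, had -0.78. Of the proliferation genes CENPF (0.61) and CDK1 (0.60) had the highest r with MYB. These 5 were picked with their values in view, and the part of T cells or dividing cells in the level of MYB was not tested. Of the oviduct secretory list, picked in the same way, EPCAM (0.87) and OVGP1 (0.79) had the highest r with MYB. CLDN4 (-0.37), PAX8 (-0.33) and MSLN (-0.03) of that list were negative. Luteal and granulosa markers, which stand for the labelled tissue, were expressed in every group (luteal sums of 196 to 770 CPM, granulosa sums of 80.2 to 273 CPM), and their median r with the axonemal level was -0.46 and -0.41. Both medians moved without W4 and D6, to -0.37 and -0.02. They cover few genes, which went both ways over the 9 ewes. The 4 luteal genes ran from -0.59 (HSD3B1) to 0.53 (STAR), and the 5 granulosa genes from -0.54 (INHA) to 0.13 (NR5A2).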

How the data were processed

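The authors aligned the reads to Oar_v3.1 with TopHat (default settings) and deposited raw counts of the uniquely mapped reads for each gene. Neither counter nor strand setting is given in the sources used here, and the methods and the labels name different Illumina library kits. RIN values and reads were not used here. All 9 libraries entered 1 fit in edgeR 4.0.16 (R 4.3.3) with 1 factor, the group. Counts were TMM scaled, and filterByExpr by group kept 16871 rows. The quasi-likelihood F-test was used, with Benjamini-Hochberg adjustment over all tested genes, and SE is the log2 fold change divided by the square root of F. Called means an adjusted p under 0.05 and a change beyond 1.5-fold. Intervals of log2 fold changes are approximate, built from this SE with the 95% multiplier of a normal distribution. They are narrower than the F-test implies, and some exclude 0 where the unadjusted p is above 0.05. CDC20B in Han BB against Dorset, for example, had 0.02 to 3.83 with a quasi-likelihood p of 0.0739. Log2 CPM used a prior count of 2. Correlations were tested by exact two-sided permutation over ewes, for 36 relations of 9 regulators with 4 levels and for 36 pairs. DESeq2 1.42.0 and limma 3.58.1 (voom) were alternatives. Poisson intervals cover counting error only.

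The members and gene lists were chosen with earlier results of these data known. Named were the 9 regulators, GMNC, E2F5, ROPN1L, the 10 genes nearest to FOXJ1, and per list and comparison the genes called or, with none, the gene of smallest p; other genes are said to be named after their values were seen. Tests were tried on simulated counts.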

Additional observations from a re-analysis of the deposited data

How the results depend on the processing

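No paired analysis was possible because the labels number the ewes differently in each group, and no number pairs them. With 3 ewes per group and a biological CV of 0.472, and few reads for TP73, CCNO and MCIDAS, small differences could not be detected. Genes called numbered 0 for Han BB and 1 for Han ++ against Dorset, 0 between the Han genotypes and 0 for both Han groups together against Dorset. They numbered 38, 65, 2 and 88 with DESeq2, and 2, 11 and 6 with no filter, 2, 22 and 6 without W4 and D6 and 1, 78 and 71 with a term for their split, for the 3 comparisons with Dorset. limma voom called 0 in Han ++ against Dorset and 2 in Han BB against Han ++, and a fit of the 2 groups alone called 0 in Han ++ against Dorset. Leaving out 1 ewe at a time gave 0 to 1, 0 to 5, 0 to 0 and 0 to 4, the highest each time without W4 (Han BB replicate 3). The regulators called stayed at 0 except for 1, FOXJ1, with DESeq2 in Han ++ against Dorset (1.70). The cause of these changes was not tested.

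Directions turned only for reported differences between -0.36 and 0.15. CCNO in Han BB against Dorset was 0.19 with voom and 0.12 without W4 and D6. In Han ++ against Dorset RFX1 was -0.03 with voom, -0.23 without W4 and D6 and -0.16 with the split term, and E2F4 was -0.12, -0.02 and -0.09. RFX3 in Han BB against Han ++ was 0 with voom, -0.03 and -0.01. Leaving out 1 ewe at a time, CCNO ran from -0.40 to 0.28 and RFX1 from -0.86 to 0.21 between Han BB and Dorset, RFX1 from -0.22 to 0.70 and E2F4 from -0.16 to 0.19 between Han ++ and Dorset, and RFX1 from -0.47 to 0.45 and E2F4 from -0.20 to 0.03 between all Han and Dorset ewes. Between Han BB and Han ++, MYB ran from -1.37 to 0.52, RFX2 from -0.41 to 0.10 and RFX3 from -0.03 to 0.30, and TP73 from -0.81 to 0.

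The r with the axonemal level turned to -0.17 for FOXJ1 and -0.05 for MCIDAS on deviations from the group means. Without W4 and D6 FOXJ1 passed the threshold (0.97) and MYB no longer did (0.86), with an adjustment that does not cover the choice of these libraries. Leaving out 1 ewe at a time, E2F4 ran from -0.83 to -0.38, past the threshold without W8. Chosen after seeing the data, the level without dynein heavy chains gave 0.42 for FOXJ1 and 0.91 for MYB, and the heavy chains alone 0.35 and 0.87.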

Other observations

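The 10 genes nearest to MYB over the 9 ewes, described after their values were seen, opened with HECTD2 (r = 0.975), ECT2L (0.962), C12H1orf158 (0.953), ODF2L (0.953) and EFHC2 (0.951), the last a tubule-lumen protein of the axoneme. None of the 10 nearest to FOXJ1 was among them.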
